A study of Rattus norvegicus with 11 samples.

Results

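Most immediate early and activity genes are switched on within minutes by synaptic activity or injury, from transcription factors that are already in the cell. The list held 10 genes, Fos, Fosb, Fosl1, Jun, Junb, Egr1, Egr2, Nr4a1, Npas4 and Arc, chosen by their symbols among the 30560 genes counted, and all 10 were among the 15742 genes that passed the filter on low counts. RNA of the striatum was measured at day 3 in 11 adult male Sprague-Dawley rats, with 1 library per rat. In the rats with hemorrhage this was the injected right side, and the side taken from the Normal rats is not stated. Intracerebral hemorrhage was induced with collagenase, an enzyme that breaks open vessel walls, given into the striatum. The IC group (common hemorrhage, n = 3) received 0.2 U in 1 μL, the IS group (severe hemorrhage, n = 3) received 0.6 U in 3 μL, and the IS-HA group (n = 3) received the IS dose and had the hematoma aspirated 6 h later. The Normal rats (n = 2) had neither injection nor aspiration, so the needle track, the anesthesia and the hemorrhage cannot be told apart in a comparison with Normal.

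Most of these genes encode transcription factors. Fos, Fosb and Fosl1 proteins pair with Jun or Junb to form AP-1, which binds DNA as a dimer. Egr1 and Egr2 are zinc finger factors, Nr4a1 is an orphan nuclear receptor, Npas4 is a factor largely restricted to neurons and induced by calcium influx, and Arc is a synaptic protein whose mRNA is carried into dendrites. In the striatum, Egr1, Arc and Nr4a1 are known for their basal expression in the projection neurons, where cortical and dopaminergic input drives them, while Fosl1 and Jun are also induced in glia and in injured cells.

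Known inducers of these genes act through short promoter motifs, chiefly the cAMP response element (bound by CREB) and the serum response element. Promoter sequences of RefSeq (build GRCr8) were matched for 7 of the 10 genes, Fosb, Fosl1, Junb, Egr1, Egr2, Nr4a1 and Npas4. The 250 bases before the RefSeq start are shown for 3 genes, each picked from a different kind of result described here. Egr2 fell in IS and IS-HA, Fosl1 rose, and Junb did not pass the test. Their motifs do not stand for those of the other genes with the same kind of result. Letters run 5′ to 3′ on the strand of the gene, Egr2 is on the minus strand and the others are on the plus strand, and capitals mark matches to a motif on either strand. The windows are chr20:21054442-21054691 for Egr2, chr1:212183635-212183884 for Fosl1 and chr19:40080876-40081125 for Junb.
Egr2: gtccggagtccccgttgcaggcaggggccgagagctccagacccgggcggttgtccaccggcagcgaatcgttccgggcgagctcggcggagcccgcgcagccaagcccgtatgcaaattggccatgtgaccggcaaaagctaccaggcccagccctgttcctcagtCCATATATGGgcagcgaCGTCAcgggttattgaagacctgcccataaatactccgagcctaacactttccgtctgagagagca
Fosl1: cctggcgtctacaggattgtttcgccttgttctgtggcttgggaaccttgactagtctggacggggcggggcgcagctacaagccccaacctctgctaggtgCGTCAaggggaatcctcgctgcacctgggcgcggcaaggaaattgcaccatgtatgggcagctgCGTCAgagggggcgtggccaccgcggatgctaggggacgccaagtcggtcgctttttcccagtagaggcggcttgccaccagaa
Junb: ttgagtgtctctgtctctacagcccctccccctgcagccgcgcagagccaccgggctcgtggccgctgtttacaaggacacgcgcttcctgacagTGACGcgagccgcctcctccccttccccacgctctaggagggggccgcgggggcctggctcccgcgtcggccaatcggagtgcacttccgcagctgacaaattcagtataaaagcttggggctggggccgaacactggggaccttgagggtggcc
The short core of the cAMP response element, TGACG, was found in 5 of the 7 promoters (Fosl1, Junb, Egr1, Egr2 and Nr4a1) and in 18.2% of the 33469 promoters of the table. The serum response element was found in Egr1 and Egr2 and in 1.50% of all promoters. In Egr1 it lay at -105 to -96 and at -83 to -74, counted back from the RefSeq start, and in Egr2 at -83 to -74. A site for the Egr proteins themselves (GCGTGGGCG or GCGGGGGCG) was found in Nr4a1, at -73 to -65, and in 2.85% of all promoters. None of the 7 windows held the full cAMP response element TGACGTCA (1.59% of all promoters, a motif that contains the short core), the AP-1 site TGANTCA with C or G at N (4.05%) or the Nr4a site AAAGGTCA (1.24%). The Fosb and Npas4 windows held no match to any of these motifs, and both genes fell in IS and IS-HA as Egr2 did. A match is a description of these letters and was not tied to binding.

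Library totals ran from 6701301 counts in IS-HA replicate 2 to 18817645 counts in IC replicate 3. IS-HA replicate 2, the shallowest library, had the lowest level in its group of Fos, Fosb, Jun, Egr1, Egr2, Nr4a1, Npas4 and Arc, and results that rest on it are given with and without it. Levels below are TPM (transcript abundance scaled to gene length and library size, which allows comparison between genes of different length). Differences are log2 fold changes from edgeR's quasi-likelihood test, with standard errors (SE) and p-values adjusted over the 15742 genes, and a gene was counted as changed at an adjusted p under 0.05 and a log2 fold change of at least 1 either way.

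In uninjured striatum the most abundant of the 10 mRNAs was Egr1, at 182 ± 2.44 TPM (SD, n = 2). Arc followed at 159.8 ± 33.2 TPM, and the ranges of the 2 genes overlapped. Nr4a1 at 93.6 ± 9.67 TPM and Junb at 88.1 ± 3.58 TPM came next, again with overlapping ranges. The ranges of Fos, Jun, Egr2, Fosb, Npas4 and Fosl1 were each separate from the next, from 31.5 ± 5.41 TPM for Fos down to 0.112 ± 0.106 TPM for Fosl1. In IS the order was different. Junb (112 ± 9.37 TPM, n = 3) and Jun (69.4 ± 1.10 TPM) stood at the top, above Egr1 (44.8 ± 12.0 TPM) and Fos (24.0 ± 2.63 TPM), with separate ranges between these neighbours. Nr4a1, Arc and Fosl1 lay between 12.2 and 7.59 TPM with overlap between Nr4a1 and Arc and between Arc and Fosl1, and Npas4 was lowest at 0.808 ± 0.277 TPM. In IS-HA the mean levels followed the order of IS apart from Fosb and Egr2, which changed places, and each gene's range overlapped that of the next.

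**Figure D1:**
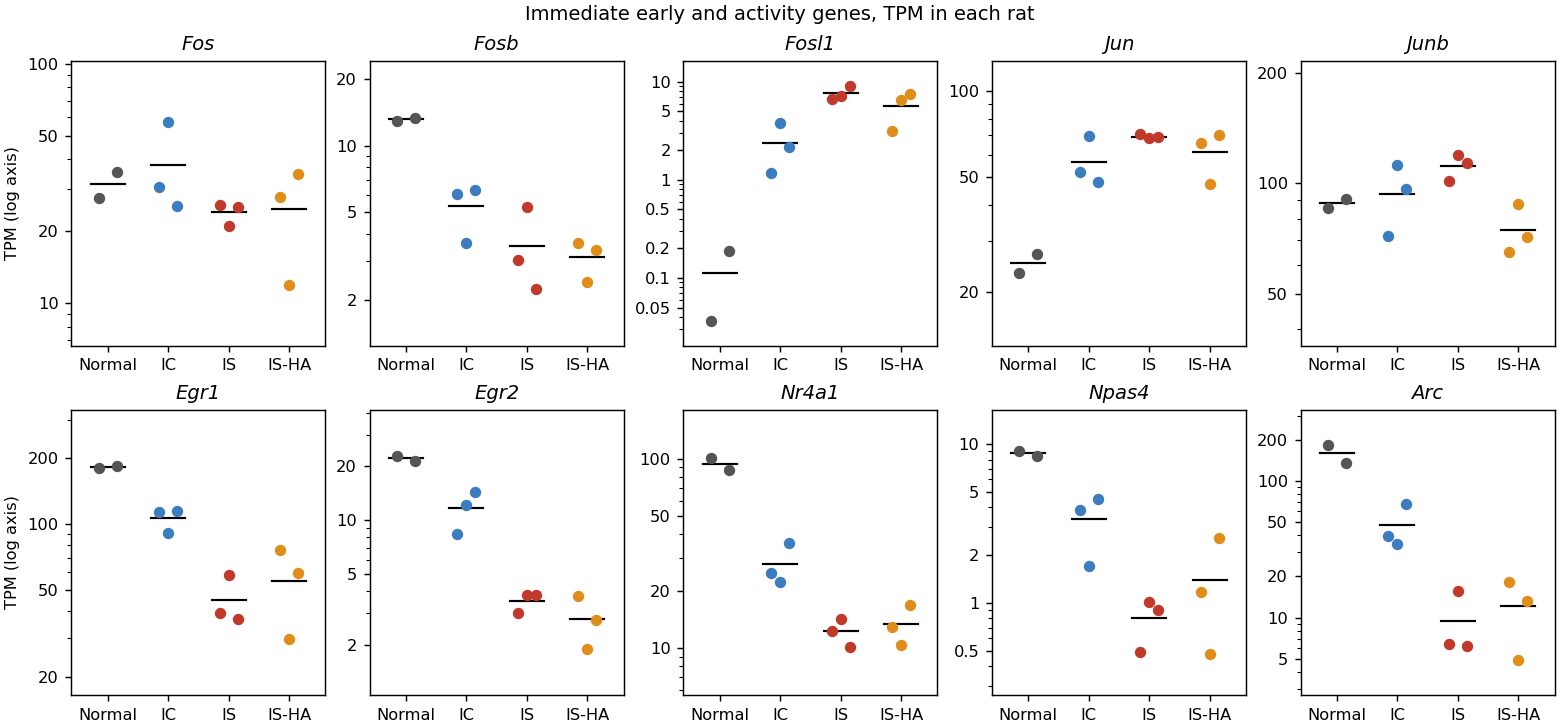
TPM of each of the 10 genes (log axis, a separate scale for each gene) in the 11 rats, with 1 point per rat and a black line at the group mean. Fosl1 and Jun lie higher in every hemorrhage rat than in the 2 Normal rats, Fosb, Egr1, Egr2, Nr4a1, Npas4 and Arc lie lower in every hemorrhage rat, and Fos and Junb overlap with Normal in IC and IS-HA.

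Against Normal, Fosl1 and Jun were higher in all 3 hemorrhage groups, Fos and Junb passed the test in none, and the other 6 were lower in IS and in IS-HA. In IC, 2 genes rose (Fosl1 and Jun) and 3 fell (Fosb, Nr4a1 and Arc), where 13.6% of all genes tested were called, 10.9% higher and 2.66% lower. In IS, 2 rose and 6 fell (Fosb, Egr1, Egr2, Nr4a1, Npas4 and Arc), where 35.8% of all genes were called, 18.8% higher and 17% lower. In IS-HA the same 2 rose and the same 6 fell, where 22.8% of all genes were called, 15.1% higher and 7.71% lower. The median log2 fold change of the 10 genes was -0.90 in IC, -1.94 in IS and -1.94 in IS-HA, beside medians over all genes of 0.0033, 0.018 and 0.056. The 3 comparisons share the same 2 Normal rats and are not independent of each other. Non-overlapping TPM ranges were common, with 59.7%, 72.4% and 56.9% of all genes not overlapping with Normal in IC, IS and IS-HA.

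**Figure D2:**
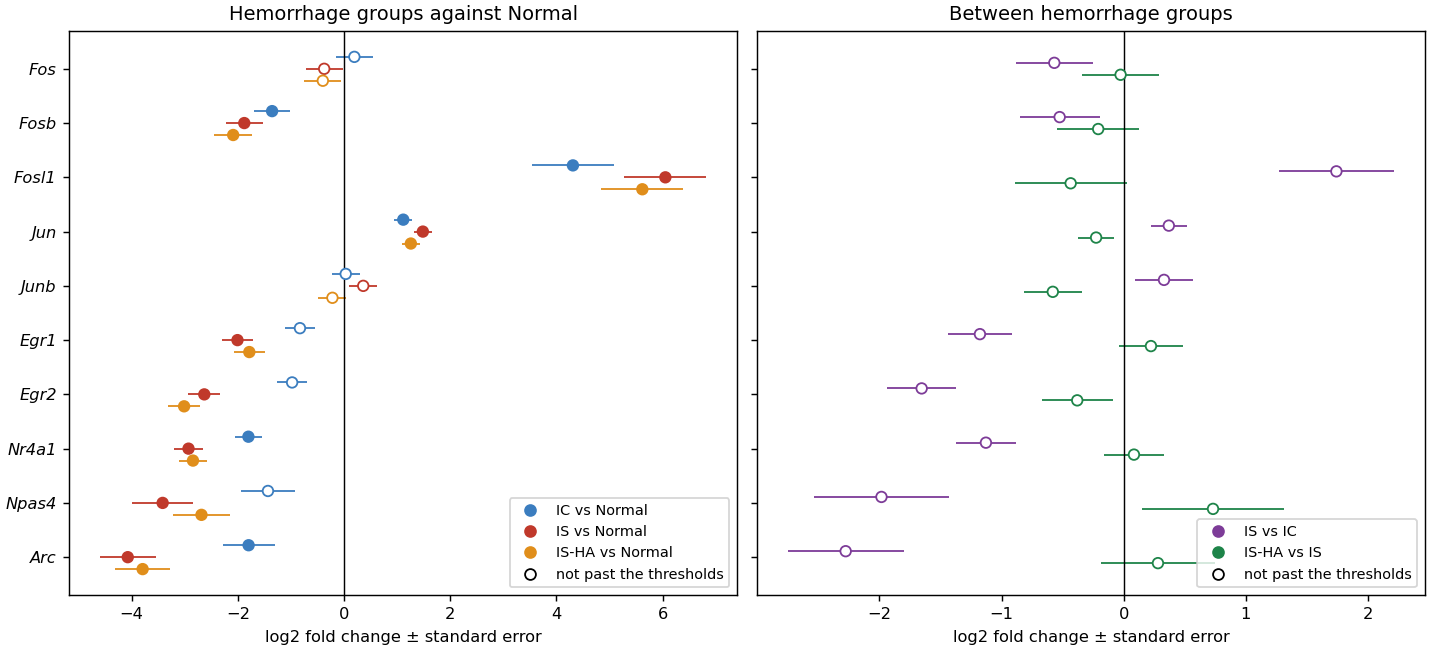
Log2 fold change of each gene with its SE from edgeR's fit, on the left for IC, IS and IS-HA against Normal and on the right for IS against IC and IS-HA against IS, where filled points passed both thresholds. In the left panel Fosl1 stands far to the right at 4.31 to 6.05, and Arc, Npas4, Nr4a1 and Egr2 lie far to the left in IS and IS-HA. In the right panel no point is filled.

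The 3 Fos family genes on the list went separate ways. Fosl1, which encodes Fra-1, a Fos protein that lacks a strong activation domain, was at 0.0366 and 0.187 TPM in the Normal rats, 1.17, 3.84 and 2.17 TPM in IC, 6.68, 7.07 and 9.02 TPM in IS and 3.18, 6.50 and 7.46 TPM in IS-HA. Every hemorrhage rat was above both Normal rats, and every IS rat was above every IC rat. The log2 fold change against Normal was 4.31 (SE 0.77, adjusted p = 0.00327 by edgeR's quasi-likelihood test) in IC, 6.05 (SE 0.77, adjusted p = 0.000215) in IS and 5.62 (SE 0.77, adjusted p = 0.000546) in IS-HA. The Normal level rested on 6 counts over both rats, 1 and 5. From the summed counts relative to the library totals, Fosl1 was 24.1-fold higher in IC (95% exact interval 10.9 to 66.6), 73.9-fold higher in IS (33.6 to 203) and 50.7-fold higher in IS-HA (23.0 to 139.5), intervals that cover counting error only.

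Fosb, whose products include the long-lived truncated form that builds up in striatal neurons under repeated stimulation, was at 12.9 and 13.4 TPM in Normal, 6.03, 3.62 and 6.28 TPM in IC, 3.04, 5.28 and 2.24 TPM in IS and 3.64, 2.42 and 3.36 TPM in IS-HA. Both Normal rats were above every hemorrhage rat. It fell 2.56-fold in IC (log2 -1.35, SE 0.35, adjusted p = 0.0221), 3.68-fold in IS (log2 -1.88, SE 0.35, adjusted p = 0.00176) and 4.25-fold in IS-HA (log2 -2.09, SE 0.35, adjusted p = 0.00190). The call in IC was lost without Normal replicate 1 (adjusted p = 0.1), Normal replicate 3 (adjusted p = 0.120) or IC replicate 3 (adjusted p = 0.0800), with the replicate number as a block (adjusted p = 0.295) and with limma without a filter (adjusted p = 0.0523).

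Fos, the gene most used as a marker of recent neuronal firing, was at 27.7 and 35.3 TPM in Normal, 30.6, 57.1 and 25.6 TPM in IC, 25.7, 20.9 and 25.3 TPM in IS and 27.7, 12.0 and 34.6 TPM in IS-HA. The highest rat was IC replicate 3 and the lowest was IS-HA replicate 2. The log2 differences from Normal were 0.20 (SE 0.35, adjusted p = 0.725) in IC, -0.37 (SE 0.35, adjusted p = 0.393) in IS and -0.40 (SE 0.35, adjusted p = 0.390) in IS-HA. The value in IC was -0.18 without IC replicate 3.

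The make-up of the summed Fos, Fosb and Fosl1 TPM differed with the groups. The measure was chosen after the values were seen, so no test is given. Fosl1 made up 0.0901% and 0.382% of the summed TPM of Fos, Fosb and Fosl1 in the Normal rats. It made up 3.08%, 5.95% and 6.36% in IC, 18.9%, 21.3% and 24.7% in IS, and 9.21%, 31.1% and 16.4% in IS-HA. The share was higher in every IS rat than in every IC rat, while the IS-HA rats spread across the IS range, with the highest share in IS-HA replicate 2. The summed TPM of Fos, Fosb and Fosl1 was 44.8 ± 5.88 (n = 2) in Normal, 45.5 ± 16.6 in IC, 35.1 ± 1.64 in IS and 33.6 ± 12.3 in IS-HA (n = 3 each). Fosl2, a Fos family gene outside the list, is not in these sums or shares. It averaged 13.1 TPM in Normal, 7.6 in IC, 8.6 in IS and 6.5 in IS-HA.

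Of the Jun genes on the list, Jun rose and Junb did not pass the test. Jun, the AP-1 subunit phosphorylated by the JNK stress kinases and induced in neurons after axonal injury, was at 23.3 and 27.0 TPM in Normal, 52.1, 69.9 and 48.3 TPM in IC, 70.6, 68.6 and 68.9 TPM in IS and 65.9, 47.4 and 70.5 TPM in IS-HA. All 9 hemorrhage rats were above both Normal rats. Jun rose 2.17-fold in IC (log2 1.12, SE 0.17, adjusted p = 0.00126), 2.80-fold in IS (log2 1.49, SE 0.17, adjusted p = 0.000122) and 2.39-fold in IS-HA (log2 1.26, SE 0.17, adjusted p = 0.000506). Without IC replicate 3 its log2 fold change in IC was 0.98, under the fold threshold, with an adjusted p of 0.00425.

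Junb, an AP-1 subunit that often acts against Jun, was at 85.6 and 90.6 TPM in Normal, 71.7, 112 and 96.4 TPM in IC, 101, 119.8 and 113 TPM in IS and 64.8, 88.1 and 71.5 TPM in IS-HA. The IS rats were above Normal and above every IS-HA rat, and the IC rats overlapped with both. None of its differences from Normal passed the test, with log2 values of 0.03 (SE 0.26, adjusted p = 0.943) in IC, 0.36 (SE 0.27, adjusted p = 0.276) in IS and -0.22 (SE 0.26, adjusted p = 0.539) in IS-HA. The value in IC changed sign without IC replicate 3 (-0.07) or IC replicate 4 (-0.06). Jun made up 21.4% and 23.0% of the summed Jun and Junb TPM in the Normal rats and 33.4% to 50.4% in the 9 hemorrhage rats. Jund, a Jun gene outside the list, is not in this sum. It averaged 149 TPM in Normal, 166 in IC, 229 in IS and 216 in IS-HA.

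Egr1, Egr2 and Nr4a1 were lower in both severe groups, IS and IS-HA. Egr1, a zinc finger factor linked to late-phase plasticity, was at 180.5 and 184 TPM in Normal, 113, 90.6 and 114 TPM in IC, 39.1, 58.6 and 36.7 TPM in IS and 75.8, 29.8 and 59.7 TPM in IS-HA. Normal, IC and IS formed 3 separate ranges, and IS-HA overlapped with IS. Egr1 fell 4.02-fold in IS (log2 -2.01, SE 0.29, adjusted p = 0.000432) and 3.44-fold in IS-HA (log2 -1.78, SE 0.29, adjusted p = 0.00144). In IC the log2 difference was -0.83 (SE 0.29, adjusted p = 0.0691), which did not pass.

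Egr2, which also drives myelination in Schwann cells, was at 22.9 and 21.3 TPM in Normal, 8.36, 12.1 and 14.4 TPM in IC, 3.02, 3.80 and 3.78 TPM in IS and 3.73, 1.88 and 2.74 TPM in IS-HA. Normal, IC and IS were again separate. Egr2 fell 6.19-fold in IS (log2 -2.63, SE 0.30, adjusted p = 0.000119) and 8.06-fold in IS-HA (log2 -3.01, SE 0.31, adjusted p = 0.000112). In IC its log2 difference of -0.98 (SE 0.29) had an adjusted p of 0.0394 but fell short of the fold threshold, which it passed without IC replicate 4 (log2 -1.24, adjusted p = 0.0257).

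Nr4a1, which encodes the orphan receptor Nur77, was at 100.5 and 86.8 TPM in Normal, 24.9, 22.3 and 35.9 TPM in IC, 12.3, 14.2 and 10.2 TPM in IS and 13.0, 10.3 and 16.8 TPM in IS-HA. The groups stepped down from Normal to IC to IS without overlap. Nr4a1 fell 3.48-fold in IC (log2 -1.80, SE 0.26, adjusted p = 0.000942), 7.61-fold in IS (log2 -2.93, SE 0.27, adjusted p = 3.8e-05) and 7.18-fold in IS-HA (log2 -2.84, SE 0.27, adjusted p = 8.7e-05). It was the only one of the 6 lower genes whose call in IC held when any single rat was left out.

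The neuronal genes Npas4 and Arc had the largest falls in IS. Npas4, which adjusts inhibitory synapses to activity, was at 9.10 and 8.44 TPM in Normal, 3.87, 1.72 and 4.50 TPM in IC, 0.495, 1.02 and 0.907 TPM in IS and 1.18, 0.476 and 2.56 TPM in IS-HA. Its counts per rat were 6 to 13 in IS and 4 to 28 in IS-HA, against 172 and 156 in Normal. Npas4 fell 10.7-fold in IS (log2 -3.42, SE 0.58, adjusted p = 0.000993) and 6.43-fold in IS-HA (log2 -2.68, SE 0.55, adjusted p = 0.00487). In IC the log2 difference of -1.43 (SE 0.51) had an adjusted p of 0.0761, which was 0.0305 without IS-HA replicate 2, a library that is in neither group but enters the shared estimate of spread.

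Arc, which controls the removal of AMPA receptors from the synapse, was at 183 and 136 TPM in Normal, 39.4, 34.6 and 67.8 TPM in IC, 6.39, 15.5 and 6.24 TPM in IS and 18.1, 4.88 and 13.2 TPM in IS-HA. Every IC rat was below both Normal rats and above every IS and IS-HA rat. Arc fell 3.47-fold in IC (log2 -1.80, SE 0.49, adjusted p = 0.0293), 16.8-fold in IS (log2 -4.07, SE 0.53, adjusted p = 0.000238) and 13.9-fold in IS-HA (log2 -3.79, SE 0.52, adjusted p = 0.000552). The call in IC was lost without Normal replicate 1 (adjusted p = 0.151), Normal replicate 3 (0.0851), IC replicate 2 (0.0803) or IC replicate 3 (0.116). It was also lost with limma on log2(TPM + 0.1) (adjusted p = 0.0530), with limma without a filter (0.0724) and with the replicate number as a block, where the log2 fold change was -1.19 (adjusted p = 0.318).

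With 1 rat left out, the number of the 10 genes called in IC against Normal ran from 2, without IC replicate 3, to 6. DESeq2's Wald test called 7 there, adding Egr2 (adjusted p = 0.0105) and Npas4 (adjusted p = 0.0432) to the 5. In IS and IS-HA it was 8 whichever rat was left out.

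IS was compared with IC to ask whether a larger hemorrhage left a different level of these genes. The groups also differed in collagenase dose and injected volume, which cannot be told apart from hemorrhage size. None of the 10 was called by edgeR's test, where 0% of all genes were called. At an unadjusted p under 0.05 edgeR had 7 of the 10 (2 higher, 5 lower) and 3498 of the 15742 genes. The 5 lower genes were Egr1 (log2 -1.18, SE 0.27), Egr2 (-1.65, SE 0.28), Nr4a1 (-1.13, SE 0.24), Npas4 (-1.98, SE 0.55) and Arc (-2.28, SE 0.48), and in each of them every IS rat was below every IC rat in TPM. Their adjusted p-values from edgeR were 0.143 for Egr1, Egr2, Nr4a1 and Arc and 0.148 for Npas4. Fosl1 was higher in every IS rat than in every IC rat (log2 1.74, SE 0.47, adjusted p = 0.148), and Jun differed by 0.37 (SE 0.15, adjusted p = 0.189), with groups that overlapped in TPM but not in normalized CPM. Among all genes 33.4% did not overlap between IS and IC in TPM.

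The outcome of this comparison turned on the tool and on 1 library. DESeq2's Wald test called 6 of the 10, Fosl1 higher (adjusted p = 0.0161) and Egr1 (0.00522), Egr2 (0.000119), Nr4a1 (0.00497), Npas4 (0.0219) and Arc (0.000798) lower, among 611 genes in all. edgeR's test called the same 6 without IS-HA replicate 2, with adjusted p-values of 0.0208 for Egr2 to 0.0352 for Fosl1, among 964 genes in all. That library is in neither group and enters only through normalization, the filter and the shared estimate of spread. Fos (log2 -0.57, adjusted p = 0.295), Fosb (-0.52, adjusted p = 0.342) and Junb (0.33, adjusted p = 0.401) passed under none of the alternatives.

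IS-HA was compared with IS to ask what aspiration of the hematoma left different. The IS-HA rats were also anesthetized again and had a catheter passed through the hematoma, and the study describes no mock aspiration. These steps cannot be told apart from removal of the hematoma. None of the 10 genes was called, where 0.00635% of all genes were called (1 gene), and 1 of the 10 and 1408 of all genes had an unadjusted p under 0.05 by edgeR. DESeq2's Wald test called none of the 10 either. The gene with the smallest p was Junb, lower in all 3 IS-HA rats than in any IS rat in TPM (log2 -0.58, SE 0.24, adjusted p = 0.550 by edgeR), where 9.97% of all genes did not overlap. Without IS-HA replicate 2 the log2 difference of Junb was -0.87 with an adjusted p of 0.0448, under the fold threshold. The separation depended on the scale, since in normalized CPM Junb overlapped between the groups and Jun was lower in every IS-HA rat (log2 -0.23, adjusted p = 0.625). The other 9 genes overlapped between the groups in TPM, with log2 differences from -0.43 for Fosl1 to 0.73 for Npas4 (SE 0.46 and 0.58) and adjusted p-values up to 0.990. A p that misses the threshold does not show that the groups were alike.

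The samples were bulk tissue, in which fewer cells of a type and less RNA per cell cannot be told apart. The 9 markers read for striatal projection neurons were Ppp1r1b, Drd1, Drd2, Adora2a, Penk, Tac1, Pde10a, Rgs9 and Bcl11b, and none was at 0 in any rat. Their summed TPM ranged from 5808 to 6289.9 in Normal, 2602 to 5242 in IC, 1313 to 3432 in IS and 1308 to 2866 in IS-HA, and 1, 8 and 8 of the 9 fell in IC, IS and IS-HA against Normal. Of 10 general neuron markers 2, 8 and 2 fell. The summed TPM of 5 cortical projection neuron markers ranged from 105 to 357 in Normal, 35.2 to 140 in IC, 14.1 to 385 in IS and 105 to 282 in IS-HA. None of these 5 was called against Normal, and the amount of cortex in each dissection was not tested. All 10 microglia and macrophage markers rose in each hemorrhage group, from a summed 195 to 292 TPM in Normal to 2116 to 2976 in IC, 4013 to 5246 in IS and 2826 to 4942 in IS-HA. All 6 neutrophil markers rose too, from 6.49 to 6.78 TPM in Normal to 270 to 652 in IC, 777 to 888 in IS and 529 to 1113 in IS-HA. The part of these shifts in the changes of the 10 genes was not tested.

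Each gene was also set against the neuron markers of the same rat, as its log2 CPM minus the mean log2 CPM of the 9 striatal projection neuron markers. The mean of these markers was lower than in Normal on the log2 scale, with differences of -0.96 in IC, -2.20 in IS and -2.12 in IS-HA. Relative to them, Arc remained lower than in Normal in every rat of each group, at -0.90 in IC, -1.98 in IS and -1.78 in IS-HA. The two-sided exact permutation test gave p = 0.2, 0.1 and 0.1, and 0.1 is the smallest p that 3 against 2 or 3 against 3 rats allow. For Nr4a1 the relative difference was -0.87 in IC and -0.72 in IS, and for Npas4 it was -0.54 in IC and -1.06 in IS, all without overlap. Both overlapped with Normal in IS-HA. These overlaps turned on the marker list. Relative to the 10 general neuron markers, Nr4a1 and Npas4 overlapped with Normal in IC and IS and were below it in every IS-HA rat (-1.67 and -1.63), and Arc overlapped in IC.

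Fos, Fosl1, Jun and Junb were above Normal relative to the markers in every hemorrhage rat, with either marker list. The markers themselves fell, so a gene with an unchanged CPM also lies above Normal on this scale. The share of all genes that did so was not computed. For Fos, which passed no test on its own scale, the relative differences were 1.09 in IC, 1.83 in IS and 1.65 in IS-HA (exact permutation p = 0.3, 0.2 and 0.1), and for Junb they were 0.97, 2.55 and 1.87 (exact permutation p = 0.2, 0.1 and 0.2).

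Egr1, which fell in IS and IS-HA, lay close to the striatal markers in every group, with relative differences from Normal of 0.12 in IC, 0.16 in IS and 0.28 in IS-HA and overlapping rats. Fosb, which fell in all 3 groups on its own scale, differed by -0.43 in IC, 0.25 in IS and 0.058 in IS-HA relative to the markers. Egr2 differed by -0.049 in IC, -0.40 in IS and -0.88 in IS-HA, without overlap in IS-HA. Between IS and IC, Arc was lower relative to the markers in every IS rat (-1.08, exact permutation p = 0.1), and Fosb (0.68), Fosl1 (3.07) and Junb (1.58) were higher in every IS rat at the same exact p. The marker mean itself differed by -1.24 between IS and IC, which raises a gene with an unchanged CPM on this scale. On its own scale Fosb differed by -0.52. Fos (0.74), Jun (1.62), Egr1 (0.044), Egr2 (-0.35), Nr4a1 (0.15) and Npas4 (-0.52) overlapped. With the general neuron markers, Fosb and Junb overlapped as well. Over the 50 such tests (10 genes, 5 comparisons) the lowest Benjamini-Hochberg adjusted p was 0.3125. With so few rats no exact p can go below 0.1, so none could have passed and these tests decide nothing. With the 10 general neuron markers in place of the striatal ones the IS-HA differences were lower, -0.67 for Egr1 and -2.74 for Arc against Normal. Every IS-HA rat was then below both Normal rats for Egr1 as for Arc.

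**Figure D3:**
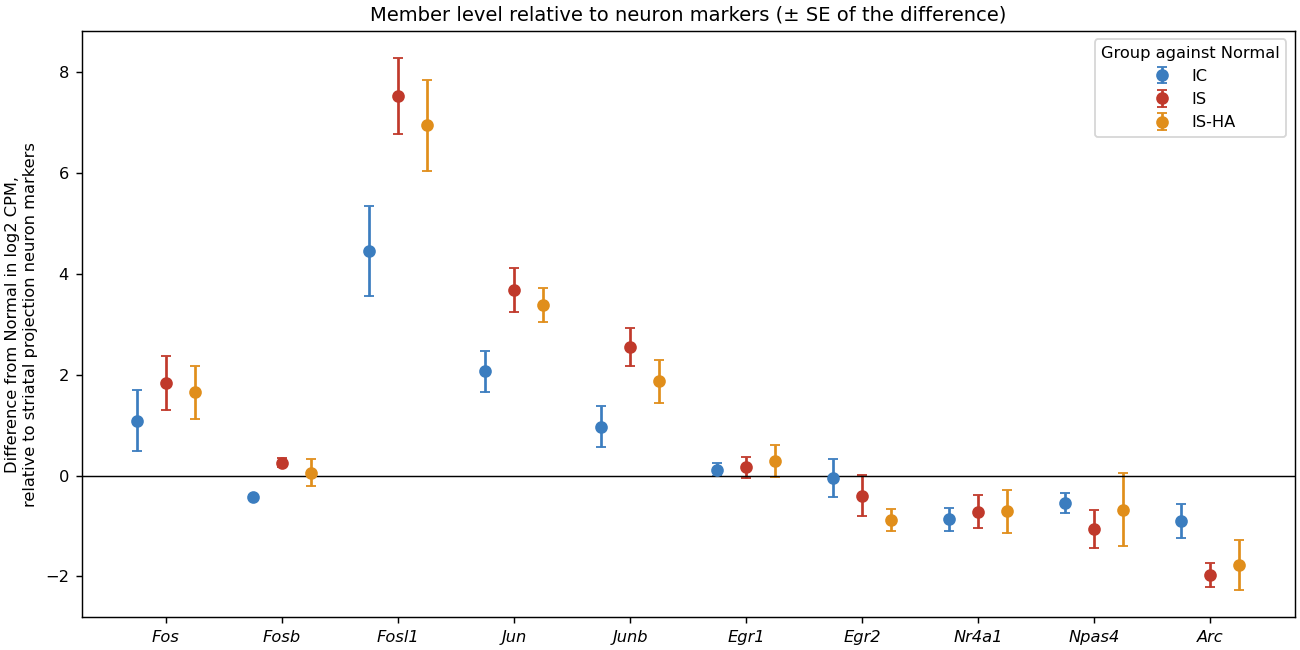
Difference from Normal of the 10 genes relative to the mean of 9 striatal projection neuron markers (log2 CPM of the gene minus the mean log2 CPM of the markers), as group means with the SE of the difference for IC, IS and IS-HA. Fosl1, Jun, Junb and Fos lie above 0 in all 3 groups, Egr1 lies close to 0, and Arc is furthest below 0, at -0.90, -1.98 and -1.78. The markers themselves fell, so a gene with an unchanged CPM also lies above 0.

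Related genes from 5 lists were read in the same fit. Their counts stand beside the shares of all genes called higher and lower against Normal. These were 10.9% and 2.66% in IC, 18.8% and 17% in IS, and 15.1% and 7.71% in IS-HA. AP-1 partners outside the 10 genes (8 tested) had 3 higher and 0 lower in IC, 4 higher and 0 lower in IS, and 4 higher and 1 lower in IS-HA, with medians of 1.38, 2.03 and 1.81. Batf, a leucocyte AP-1 factor, rose by 5.41 in IC, 7.44 in IS and 6.35 in IS-HA on the log2 scale. Atf3, induced by injury and stress in many cells, rose by 3.69, 4.87 and 4.47. Maff rose in all 3 groups, by 2.87 in IC, 3.71 in IS and 3.04 in IS-HA. Batf3 rose by 3.43 in IS and 3.48 in IS-HA. The gene that fell in IS-HA was Fosl2, at -1.06, named after its value was seen.

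The other Egr, Nr4a and Egr-regulating genes (6 tested) had 0 higher in any group and 2, 4 and 3 lower in IC, IS and IS-HA, with medians of -1.31, -2.07 and -1.85. Egr3 fell in all 3 groups, with log2 fold changes of -1.88 in IC, -3.26 in IS and -2.91 in IS-HA. Nr4a3 fell as well, at -2.32, -2.52 and -2.79. Egr4 fell in the severe groups, at -3.13 in IS and -3.29 in IS-HA.

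Other rapid primary response genes (17 tested), which are not particular to neurons, had 6, 12 and 8 higher in IC, IS and IS-HA and 0 lower, with medians of 0.64, 1.37 and 0.84. Ier3 rose by 2.58, 3.78 and 2.88, and Zfp36, which speeds the decay of cytokine mRNAs, rose by 1.92 in IC, 2.77 in IS and 1.98 in IS-HA. In the same order, Myc rose by 2.14, 2.55 and 2.21, Ccn1 by 2.37, 2.565 and 1.71, and Ier2 by 1.70, 2.57 and 1.91.

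Neuronal activity effector genes (19 tested) had 0 higher and 1 lower in IC, 2 higher and 7 lower in IS, and 1 higher and 4 lower in IS-HA, with medians of -0.56, -0.60 and -0.49. Bdnf, the activity-dependent neurotrophin, fell in IC and in IS, with log2 fold changes of -2.28 and -2.015. Inhba, a subunit of activin, fell in IS (-4.31) and in IS-HA (-2.30). Pcsk1, a prohormone convertase, fell in IS (-2.45), and Homer1, a synaptic scaffold gene, fell in IS (-2.36) and in IS-HA (-1.85). Gadd45g rose by 2.73 in IS and 2.55 in IS-HA.

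Upstream regulators of the 10 genes (17 tested) were mostly kinases and transcription factors, with Crtc1 and Ppp3ca besides. They had 0 higher in any group and 3, 10 and 6 lower, with medians of -0.81, -1.43 and -0.99. Camk4, a calcium-dependent kinase that acts on CREB, fell in all 3 groups, with log2 fold changes of -1.91 in IC, -3.16 in IS and -2.68 in IS-HA. Ppp3ca, a catalytic subunit of calcineurin, fell at -1.25, -2.28 and -1.89. Crtc1, a CREB coactivator, fell in all 3 groups as well, at -1.16 in IC, -1.79 in IS and -1.34 in IS-HA. Camk2a fell in IS (-2.19), and Mef2d fell in IS (-1.55) and in IS-HA (-1.48). No gene of the 5 lists was called by edgeR in IS against IC or IS-HA against IS. Taking from each of the 5 lists the gene with the smallest p, those in IS against IC were Inhba (log2 -3.25), Ier5 (0.81), Egr4 (-1.85), Crtc1 (-0.64) and Atf3 (1.18), and those in IS-HA against IS were Ier5 (-0.67), Dusp5 (-1.03), Crtc1 (0.46), Nab2 (-0.48) and Jdp2 (-0.62). These counts are a description, with no set test.

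**Figure D4:**
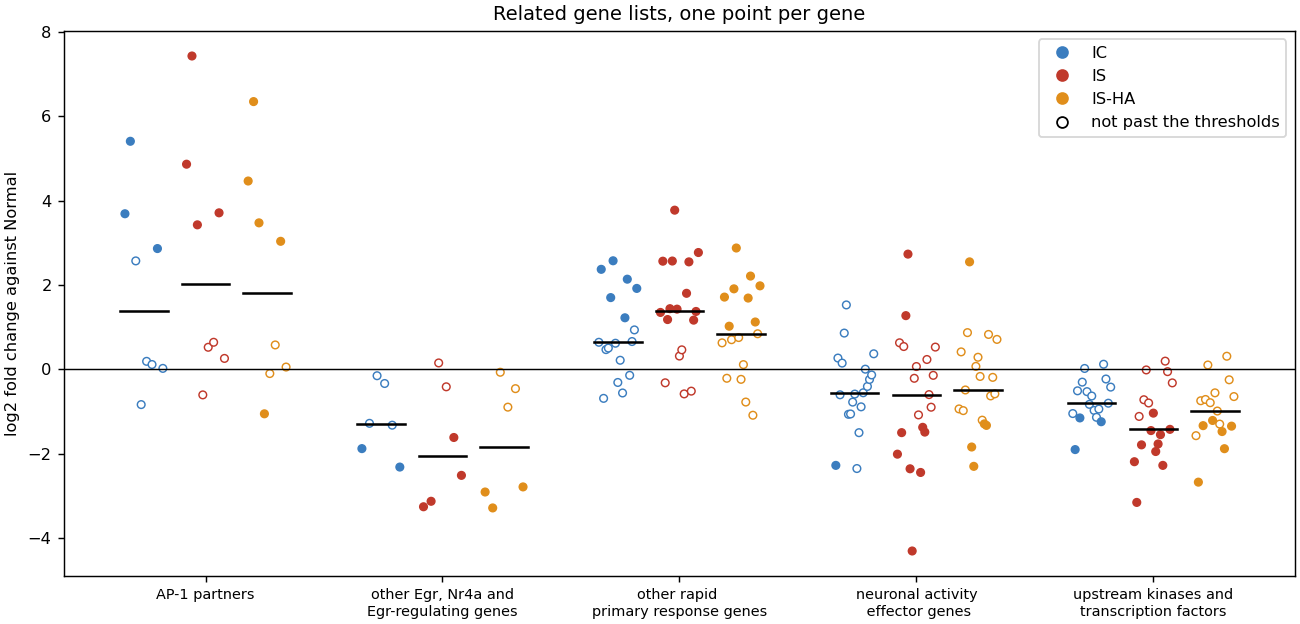
Log2 fold change against Normal of the genes of 5 related lists, with 1 point per gene for IC, IS and IS-HA, filled where both thresholds were passed, and a black line at the list's median. The AP-1 partners and the other rapid primary response genes have medians above 0 in all 3 groups (1.38, 2.03 and 1.81, and 0.64, 1.37 and 0.84), and the other 3 lists have medians below 0.

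The patterns of the 10 genes over the 11 rats were compared by the root-mean-square (RMS) difference of log2 CPM centred on each gene's own mean, where 0 is an identical pattern. Among the 10, the most alike were Fosb and Egr1 (0.34), Fosb and Nr4a1 (0.42) and Egr1 and Nr4a1 (0.46), and the least alike were Fosl1 and Arc (3.56). Fos was nearest to Junb (0.59) and Fosl1 to Jun (1.47). Outside the 10, the genes most like Fosl1 were Atf3 (0.35), the AP-1 partner above, and Erfe (0.36). The nearest to Arc were Doc2b (0.40), a calcium sensor of vesicle release, and Itgb6 (0.49), and to Egr1 they were Dlx5 (0.13) and Meis2 (0.15), transcription factors of the developing striatum. Jun was nearest to Snx18 (0.088) and Cpt1a (0.099), and Fosb to Arl4d (0.17) and Ankrd63 (0.20). Nr4a1 was nearest to Strip2 (0.33) and Otof (0.35), Egr2 to Itgb6 (0.43) and Htr6 (0.45), and Npas4 to Mir132 (0.42) and Slc17a8 (0.43). Fos was nearest to Lama3 (0.13) and Zcchc2 (0.15), and Junb to Chmp4bl1 (0.16) and Ssbp1 (0.17). Values of this kind are smaller for genes that vary little and describe these 11 rats, which share the group differences, so no p is given.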

How the data were processed

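Poly(A) RNA libraries of 11 rats were sequenced by the authors as paired reads of 150 bases. The deposited table holds raw read counts, whole and unscaled, and TPM that the authors derived from those counts and gene lengths. The submitters' processing notes name fastp 0.20.0, HISAT2 2.1.0, SAMtools 1.9, featureCounts and the build mRatBN7.2. The strand setting and the annotation version are not given in the sources used here, so reads of overlapping or antisense genes may be shared. The figure legends of the study give n = 3 per group for RNA-seq, and 2 Normal rats were analysed here.

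Counts were filtered by filterByExpr, normalized by TMM and tested with edgeR 4.0.16 (R 4.3.3) over the 4 groups at once, and p-values were adjusted by Benjamini and Hochberg's method across 15742 genes. The common dispersion was 0.0691. The SE was approximated from the log2 fold change and its F statistic. Log2 CPM used a prior count of 2. No pair of libraries was identical, 0 columns were unmatched, and the labels do not tie equal replicate numbers to the same animal. The fit was tested on simulated data.

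The 10 genes, the lists and the rules were chosen with earlier results of these data known. Named from each list were up to 3 called genes with the largest fold change per comparison with Normal, and otherwise the gene with the smallest p. A gene named in one comparison with Normal also has its values in the others where it was called. The 2 most similar genes were named for each of the 10. 1 of the chosen striatal markers is not reported here and was left out of all values. Of the listed genes, Dusp1 was not matched by symbol and Mafk and Mapk3 did not pass the filter. The alternatives were DESeq2 1.42.0, other normalizations and filters, fits of 2 groups alone, fits without each rat in turn, a replicate block, limma 3.58.1 on log2(TPM + 1) and log2(TPM + 0.1), and no fold threshold.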

Additional observations from a re-analysis of the deposited data

How the results depend on the processing

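The number of the 10 genes called against Normal was 8 in IS and in IS-HA under 21 of 22 alternatives, and 6 with at least 10 counts required in every rat, a filter that removed Fosl1 and Npas4. In each of these comparisons all 218 values of single genes kept direction and call. In IC against Normal 195 of 218 did. There the number called was 7 with DESeq2's Wald test, 6 with size factors from DESeq2, 3 with the replicate block and with limma on log2(TPM + 1) without a filter, and 2 to 6 when 1 rat was left out. In IS against IC it was 6 with DESeq2's Wald test and 0 to 6 when 1 rat was left out. In IS-HA against IS it was 0 throughout.

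Over all genes, leaving out 1 rat gave 821 to 2995 calls in IC against Normal, 3633 to 6014 in IS against Normal, 1529 to 4149 in IS-HA against Normal, 0 to 964 in IS against IC and 0 to 481 in IS-HA against IS. The lowest of these counts against Normal came without Normal replicate 3, and 964 and 481 came without IS-HA replicate 2. IS-HA against Normal had 2229 calls in the fit of these groups alone. In IS against IC there were 611 calls with DESeq2's Wald test and 3 with limma without a filter. IS-HA against IS had 63 with DESeq2's Wald test and 0 with library size alone, with size factors from DESeq2, in the fit of these groups alone and in all 3 limma settings. Library size alone moved the median of all genes against Normal to 0.143 in IC, 0.146 in IS and 0.183 in IS-HA. The cause of these differences was not tested.

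Small differences changed sign when 1 rat was left out. In IC against Normal, Fos ranged from -0.18 to 0.36 and Junb from -0.0701 to 0.21, with -0.06 as the other negative value. In IS-HA against IS, Fos ranged from -0.30 to 0.23, Fosb from -0.41 to 0.19, Egr1 from -0.0213 to 0.44, Nr4a1 from -0.0628 to 0.18 and Arc from -0.0861 to 0.83.

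Equal replicate numbers do not mark the same animal. For IS and IC rats with equal numbers, deviations from the group mean correlated across genes at 0.0336 on average over 3 pairs (-0.340 to 0.356). With the replicate block there were 839 calls in IC, 2696 in IS and 2241 in IS-HA against Normal, and 0 in IS-HA against IS. In that block fit Junb was at -0.18 in IC against Normal, and Fosl1 was at 0.0706 and Arc at -0.0138 in IS-HA against IS.

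With general neuron markers in place of striatal ones, relative differences from Normal in IS-HA were 0.69 for Fos, -0.90 for Fosb, 2.42 for Jun, 0.91 for Junb, -0.67 for Egr1, -1.84 for Egr2, -1.67 for Nr4a1, -1.63 for Npas4 and -2.74 for Arc. In IC they were -0.25 for Fosb and 0.29 for Egr1, and in IS -0.0792 for Fosb, -0.17 for Egr1 and -2.31 for Arc. For IS against IC they were 0.17 for Fosb, -0.46 for Egr1, -0.35 for Nr4a1 and -1.59 for Arc. For IS-HA against IS they were -0.82 for Fosb, -0.51 for Egr1, -1.11 for Egr2, -0.62 for Nr4a1 and -0.43 for Arc. Low counts limit the precision of Npas4 (4 to 28 per rat in IS and IS-HA) and of Fosl1 (1 and 5 in Normal).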
